A study of Mus musculus with 19 samples.

Results

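The wild-type mouse aorta was compared between 16 and 30 days of age, the weeks around weaning. The members are the 3 wild-type libraries of 16 days and the 4 of 30 days, 7 of the 19 libraries of a study of Marfan syndrome; they were chosen by their labels of genotype and age. All animals were male C57BL/6, the labels name no treatment, and RNA came from whole frozen aorta. Set beside them are the Fbn1 mgR/mgR hypomorph, which makes too little fibrillin-1, at 16 days (3 libraries) and 30 days (4), and wild type at 60 days (2). Neither the aortic segment nor the tissue trimmed from it is given in the sources used here, nor is the number of animals behind a library.

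The deposited tables hold 1 FPKM value for each gene and group, that is, fragments scaled to transcript length and to library size. That value is pooled over libraries of the group, and which libraries entered it is not given. There is therefore no spread between animals, no difference below carries a test or an error, and whether 2 groups overlap cannot be said. The only error in the files belongs to another contrast, the authors' deposited test of genotype at 16 days. It implies a standard error of 0.35 for the log2 ratio, at the median of the 9985 compared genes that have such a value. That test failed for 3870 of the 13913 genes compared. Sequencing depth is unknown. Each age was normalised in its own table, and the 30-day values printed here were divided by 0.990, the median ratio of 30 over 16 days among 9322 genes at 5 FPKM or more in both; 60-day values were rescaled in the same way. Differences are log2(FPKM + 1) at 30 days minus that at 16 days, which understates changes of low genes, so 1.00 stands for 2-fold and 0.58 for 1.5-fold on that scale.

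The aorta is a layered vessel. Smooth muscle cells in the media make and hold the elastic lamellae, endothelial cells line the lumen, and fibroblasts, small vessels, nerves and macrophages lie in the adventitia, which is wrapped in perivascular fat. Elastin and fibrillar collagen are laid down mostly before and soon after birth, under rising blood pressure, while growth genes that are active in the fetus are turned down in many organs during the weeks after birth. Smooth muscle genes identified the tissue: Myl9, a myosin light chain, stood at 3572 FPKM at 16 days and 5330 at 30 days, and Tagln, an actin-binding protein of smooth muscle, at 2715 and 3956.

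Of 37668 genes listed, 13913 were above 0 at both ages with a mean of at least 1 FPKM and were compared. Most stood near the diagonal: 91.6% lay within 1.5-fold, the median difference was -0.02 and the interquartile range ran from -0.20 to 0.15. A difference of 2-fold or more was seen for 163 genes with the higher level at 30 days, 1.17% of those compared, and for 192 with the lower (1.38%). At 1.5-fold the counts were 539 higher (3.87%) and 635 lower (4.56%), the background for every list below. In 53 gene lists, 3 had a median at least 1.5-fold higher (adipocyte, complement and adventitial fibroblast) and 5 a median at least 1.5-fold lower (cardiomyocyte, skeletal muscle, developmental muscle, T cell and erythroid). The count of 5 depends on the filter on level: with no such filter, 1 list, that of cardiomyocyte genes, had a median at least 1.5-fold lower. In bulk RNA, more cells of a type and more RNA per cell cannot be told apart.

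**Figure D1:**
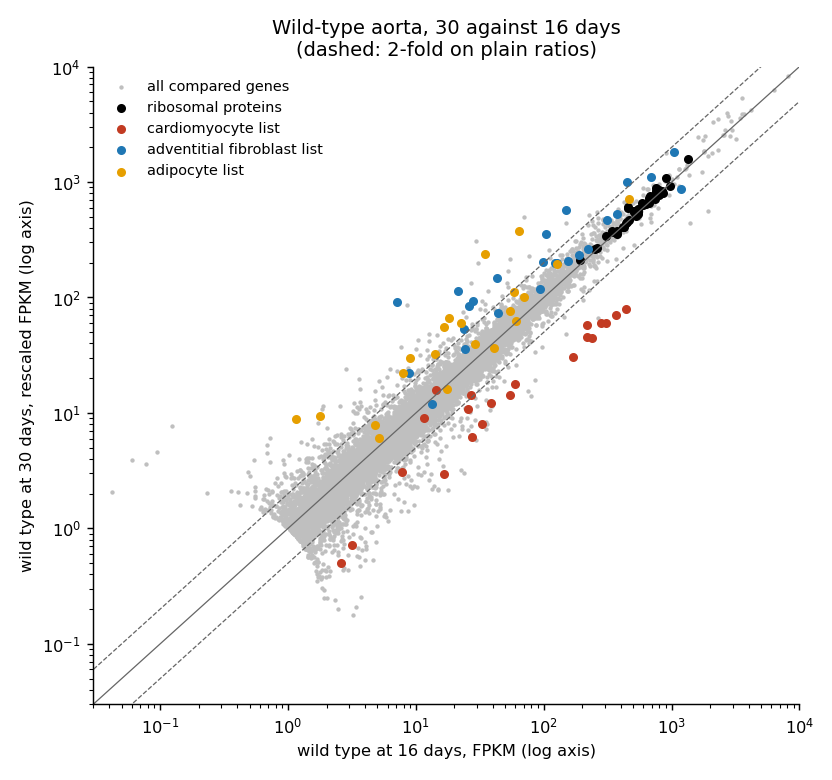
FPKM of each compared gene in wild type at 16 days (x) and 30 days (y), both on log axes, with 4 gene lists in colour; the solid line marks equal levels. Of 21 cardiomyocyte genes 20 lie below the line, and most adventitial fibroblast and adipocyte genes lie above it, with ribosomal protein genes close to it.

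**Figure D2:**
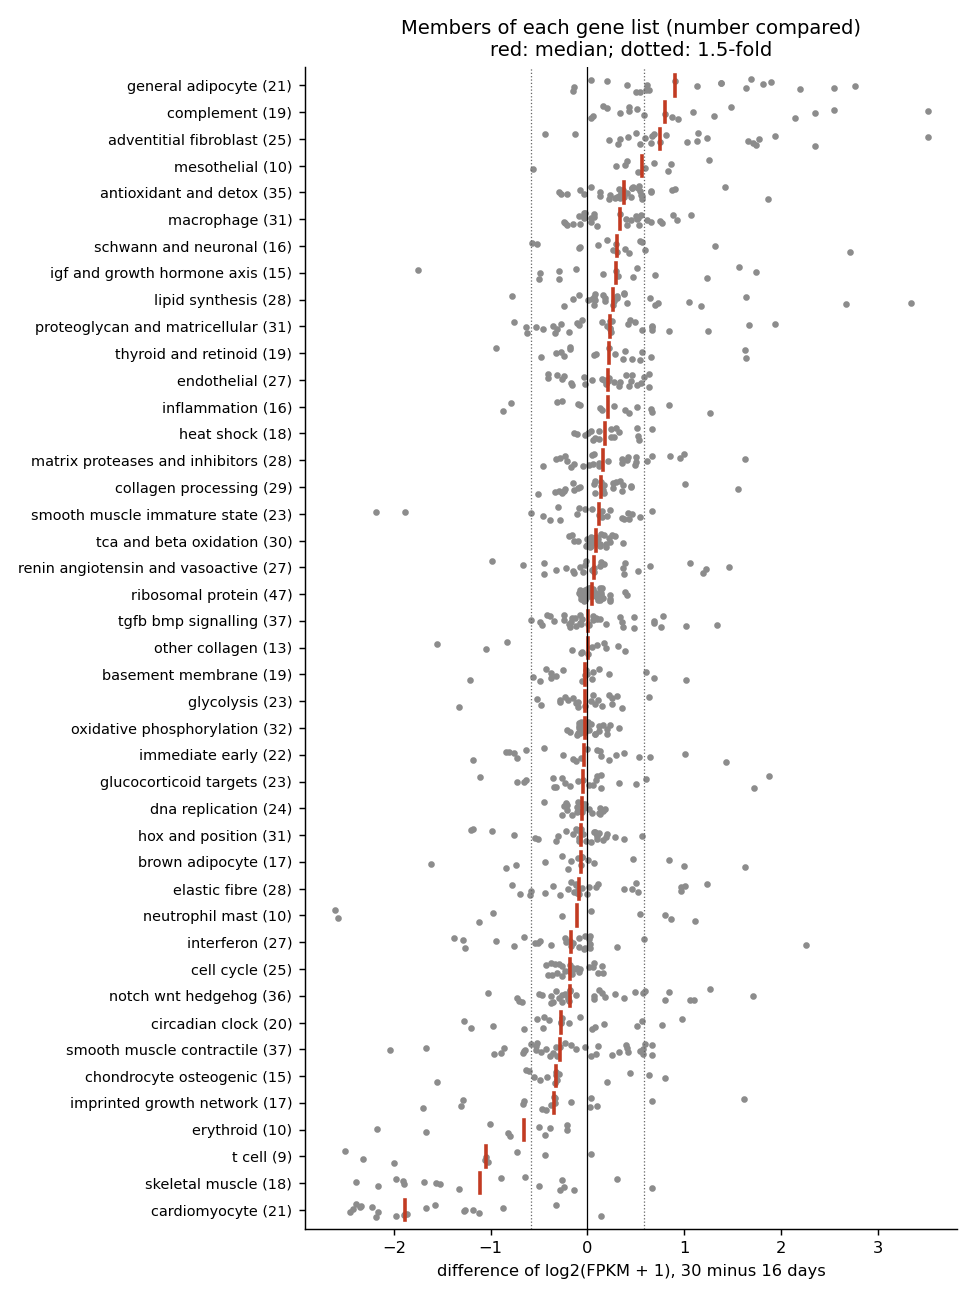
Each grey point is a list member's difference of log2(FPKM + 1), 30 minus 16 days, in wild type, with the number compared in brackets and the list median in red; lists with at least 9 compared members are drawn. Medians run from -1.88 (cardiomyocyte) to 0.91 (adipocyte).

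Genes of adventitial fibroblasts were higher in the older aorta. Of 25 compared, 17 were at least 1.5-fold higher and 0 lower, with a median difference of 0.75, and their summed level was 5547 FPKM at 16 days, 8877 at 30 days and 14529 at 60 days. The gene with the highest difference of all was C7, the complement component that joins the membrane attack complex (ENSMUSG00000079105, chr15:4938761-5013740 in mm9, in a span shared with 1 other gene): 7.09 FPKM at 16 days against 91.8 at 30 days, a difference of 3.52. Its level at 60 days was 142.7 FPKM. Pi16, a protease inhibitor that marks adventitial progenitor-like fibroblasts, stood at 149 FPKM and then 574, a difference of 1.94. Clec3b, which encodes the plasminogen-binding protein tetranectin, was at 104 and 358 FPKM (1.77). Scara5, a ferritin receptor of stromal cells, was at 26.0 and 84.5 FPKM (1.66), and Serpinf1, which encodes the antiangiogenic factor PEDF, at 451 and 995 (1.14).

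Several members were nearer 0. Decorin (Dcn), a collagen-binding proteoglycan, was at 690.4 FPKM at 16 days and 1099.7 at 30 days, a difference of 0.67. Gsn, the actin-severing protein gelsolin, stood at 1041 and 1828 FPKM (0.81). Lum, Dpt, Col14a1, Pcolce2 and Htra3, all of the fibroblast matrix, lay inside 1.5-fold, between 0.23 and 0.50. Mfap5, a microfibril protein, was the lowest of the 25 at -0.44, with 1179 FPKM against 869.

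Complement genes formed a second group that leaned one way. All 19 compared were above 0 and 11 were at least 1.5-fold higher, with a median of 0.80; C7 and C3 are on both lists. C3, the central component whose cleavage drives the cascade, stood at 21.3 FPKM at 16 days, 113 at 30 days and 264 at 60 days, a first difference of 2.36. Factor D (Cfd), the serine protease of the alternative pathway and also an adipocyte product, was at 64.2 and 379.7 FPKM (2.55). Factor B (Cfb), its substrate, was at 7.58 and 37.1 FPKM (2.15), but its span holds 3 other genes and the authors' test failed for it at 16 days. Of the classical pathway, C2 was at 5.40 and 16.9 FPKM (1.48) and the protease C1s1 at 31.7 and 79.97 (1.31).

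Among inhibitors of complement, Clu (clusterin) was at 259 FPKM and then 555 (1.10), and Serping1, the inhibitor of C1 proteases, at 264 and 487 (0.88). Cd59a, which blocks the membrane attack complex, lay inside 1.5-fold with 39.4 and 50.2 FPKM (0.34).

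The C3 promoter is printed because C3 is the shared gene of these lists for which the RefSeq promoter table (GRCm38.p6) holds a match to a C/EBP half-site pattern, searched as TTGCNNAA on both strands. The 150 bases before the start are shown 5′ to 3′ on the gene's strand (chr17:57228137-57228286, minus strand), with the match in capitals.
C3: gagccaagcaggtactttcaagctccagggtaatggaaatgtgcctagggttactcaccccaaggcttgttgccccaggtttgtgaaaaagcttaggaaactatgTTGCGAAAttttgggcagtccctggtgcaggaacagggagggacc
This pattern was in the 250 bases before the start of 3 of 14 complement genes with a promoter in the table (21.4%), of 5 of 16 adventitial fibroblast genes (31.2%) and of 10.8% of all 27025 genes. A match describes letters only. The 150 bases before the start of C7 held no match to it.

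Adipocyte genes were higher at 30 days by the largest list median. Of 21 compared, 14 were at least 1.5-fold higher and 0 lower, with a median of 0.91, and the summed level was 1119 FPKM at 16 days, 2277 at 30 days and 2092 at 60 days. Car3, a carbonic anhydrase abundant in fat, stood at 34.5 and 240.1 FPKM (2.77). Adipoq, the hormone adiponectin, was at 18.3 FPKM at 16 days and 67.0 at 30 days (1.82), and Cidec, which fuses lipid droplets, at 16.5 and 55.5 (1.69). The beta-3 adrenoceptor Adrb3, through which noradrenaline drives lipolysis, was at 1.16 and 8.90 FPKM (2.20). The gene of the fatty-acid binding protein Fabp4, which endothelium also expresses, was at 462 and 718 FPKM (0.64).

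Of 17 brown fat markers compared, 3 were at least 1.5-fold higher and 3 lower, with a median of -0.07. The deiodinase Dio2, which activates thyroid hormone, was at 5.93 and 20.4 FPKM (1.63), and Cidea at 33.9 and 61.8 (0.85). Fabp3, a fatty-acid binding protein of heart and brown fat, stood at 149.6 and 48.2 FPKM (-1.61) and the respiratory subunit Cox7a1 at 116 and 69.6 (-0.73); both are also expressed in muscle.

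The lipid synthesis list, of fatty acid and sterol genes, had 28 compared, of which 24 were above 0, 8 were higher by 1.5-fold or more and 1 lower, and its median was 0.27. The 8 were Scd1, Fasn, Thrsp, Acaca, Elovl6, Acly, Me1 and Acacb, all genes of fatty acid metabolism. The last pair, Me1 and Acacb, were named after their values were seen. Scd1, which desaturates fatty acids (ENSMUSG00000037071, chr19:44468940-44482199 in mm9), stood at 29.3 FPKM at 16 days, 307 at 30 days and 149 at 60 days, a first difference of 3.34. Fasn, the fatty acid synthase, was at 30.7, 200.9 and 178 FPKM at the 3 ages (2.67). Its supplier Acaca, acetyl-CoA carboxylase, was at 8.76 and 21.0 FPKM (1.17), the elongase Elovl6 at 2.102 and 5.418 (1.05), and Acly, which makes cytosolic acetyl-CoA, at 35.3 and 59.1 (0.73). Thrsp, a thyroid-responsive regulator of lipogenesis, was at 23.4 and 75.0 FPKM (1.64).

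RNA of the factors Srebf1 and Mlxipl, known to drive such genes, was not higher by 1.5-fold. Srebf1, which encodes SREBP-1, was at 50.01 FPKM at 16 days and 52.38 at 30 days (0.07). Mlxipl, which encodes the glucose-responsive factor ChREBP, was at 8.32 and 4.43 FPKM (-0.78), the only member at least 1.5-fold lower. Beta-oxidation and citric acid cycle genes gave 0 of 30 past 1.5-fold in either direction, with a median of 0.09.

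The promoter of Fasn is shown because CCAAT boxes, bound by NF-Y beside SREBP, were common in the lipid synthesis list: the letters CCAAT on either strand were in the 250 bases before the start of 16 of its 20 genes with a RefSeq promoter (80.0%), against 37.5% of all 27025. The 150 bases before its start (GRCm38.p6, chr11:120824548-120824697, minus strand) hold 3 matches, at -90, -62 and -59 from the start, in capitals, the last pair overlapping on opposite strands.
Fasn: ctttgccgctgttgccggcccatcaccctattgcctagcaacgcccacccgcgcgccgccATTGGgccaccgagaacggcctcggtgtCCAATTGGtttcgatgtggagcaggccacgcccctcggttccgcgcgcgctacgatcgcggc
The E-box CACGTG was before 5 of the same 20 starts (25.0%) and 6.86% of all, and the sterol-element half-site TCACNCCA before 3 (15.0%) and 4.20% of all. These shares are over the whole lipid synthesis list, and its higher genes were not counted apart. Scd1 is not among the promoters used here.

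Heart muscle genes were lower at 30 days. Of 21 cardiomyocyte genes compared, 19 were at least 1.5-fold lower at 30 days and 0 higher, with a median of -1.88. Their summed level was 2549 FPKM at 16 days, 565 at 30 days and 565 at 60 days. Tnnt2, cardiac troponin T (ENSMUSG00000026414, chr1:137737451-137748837 in mm9), stood at 438 FPKM at 16 days and 79.4 at 30 days, a difference of -2.45. Tnni3, cardiac troponin I, was at 365 and 70.7 FPKM (-2.35), and Myh6, the alpha myosin heavy chain, at 216 and 45.6 (-2.22).

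Atrial and ventricular forms were lower together. Myl7, the atrial regulatory light chain, was at 307 and 59.9 FPKM (-2.34), and Myl4, the atrial essential light chain, at 217 and 58.2 (-1.88). Myl2 and Myl3, the ventricular light chains, were at 239 and 44.8 FPKM (-2.39) and at 168 and 30.4 (-2.43). Casq2, which buffers calcium in the sarcoplasmic reticulum of heart, and Pln (phospholamban), which restrains its pump, were at 36.1 and 8.04 FPKM (-2.04) and at 59.2 and 17.9 (-1.67). The authors' deposited test of 16 days failed for Tnnt2, Tnni3, Myl2, Myl3 and Mb, so the error of their pooled values is unknown.

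Heart transcription factors lay on the same side. Gata4 stood at 12.3 FPKM at 16 days and 4.78 at 30 days (-1.20), and Tbx20 at 25.7 and 10.8 (-1.18). In the list of 31 positional genes, mainly Hox genes, these and Tbx3 and Meox1 were the only 4 at least 1.5-fold lower, 0 were higher, and the median was -0.06. Myocardium is continuous with the aortic root, and the amount of it in each pool was not measured apart from these RNAs; the part of heart tissue in other differences was not tested.

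The promoters of Myl3, Actc1 and Myl7 are printed because each holds a CArG box, the site of serum response factor (SRF), which drives heart and smooth muscle genes alike: Actc1, the cardiac actin, was at 278 FPKM and then 60.5 (-2.18). The 150 bases before each start come from RefSeq (GRCm38.p6; chr9:110763528-110763677, plus strand; chr2:114052876-114053025 and chr11:5898783-5898932, minus strand), with the box in capitals.
Myl3: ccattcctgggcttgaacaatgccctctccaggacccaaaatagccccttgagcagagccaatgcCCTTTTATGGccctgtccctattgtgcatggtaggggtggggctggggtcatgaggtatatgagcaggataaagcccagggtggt
Actc1: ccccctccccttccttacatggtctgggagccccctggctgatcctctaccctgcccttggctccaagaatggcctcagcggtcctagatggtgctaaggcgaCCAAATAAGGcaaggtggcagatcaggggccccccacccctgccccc
Myl7: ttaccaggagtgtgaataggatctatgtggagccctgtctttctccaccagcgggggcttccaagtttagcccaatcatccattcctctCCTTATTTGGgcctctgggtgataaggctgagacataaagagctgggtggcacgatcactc
These were the 3 of 21 cardiomyocyte genes with a CArG box in the 250 bases before the start (14.3%), against 1.62% of all 27025. The GATA pattern AGATAA was before 6 of the 21 (28.6%) and 11.4% of all, and a MEF2 box before 1 (4.76%) and 3.42% of all. The promoter of Tnnt2 held no CArG box in the 150 bases before either of its starts.

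Among 18 skeletal muscle genes compared, 11 were lower by 1.5-fold or more and 1 was higher, and the median was -1.10. A further 12 listed genes were under the mean of 1 FPKM. The lowest of the 18 at 30 days stood at 0.254 FPKM, so it passed the filter on level only through its 16-day level. With no such filter the median of the skeletal muscle list was not 1.5-fold lower. Many of the genes compared are shared with heart: Ckm, muscle creatine kinase, was at 35.5 and 8.28 FPKM (-1.98), and Tnnc1, the slow and cardiac troponin C, at 32.6 and 8.04 (-1.89). The fast-fibre myosins Myh1, Myh2 and Myh4, which heart lacks, were at most at 0.228 FPKM at 16 days and were not compared. Casq1, the calsequestrin of fast muscle, was at 109 and 92.0 FPKM (-0.24) and Tcap, a sarcomere cap protein, at 111 and 137.5 (0.30). All 3 compared members of the developmental muscle list, Tnnt2, Actc1 and Myl4, are cardiac genes as well.

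T cell genes that passed the filter on level were lower at 30 days from a low start. Of 9 T cell genes compared, 7 were at least 1.5-fold lower and 0 higher, with a median of -1.04, and their summed level was 63.8 FPKM at 16 days, 14.4 at 30 days and 8.31 at 60 days. Another 12 listed T cell genes, Cd4, Cd3d and Cd3e among them, were under the mean of 1 FPKM at these ages. The lowest of the 9 at 30 days stood at 0.70 FPKM, and any under 1 FPKM there passed only through its 16-day level. With no filter on level the median of the T cell list was not 1.5-fold lower. The T cell receptor constant gene Trbc2 stood at 22.7 and 3.19 FPKM (-2.50) and its near copy Trbc1, between which reads can be split, at 14.9 and 2.19 (-2.32). Cd3g, a chain of the receptor complex, was at 8.63 and 1.42 FPKM (-1.995).

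Genes of immature thymocytes were low but present at 16 days. Dntt, which adds bases when receptor genes are joined, was at 2.58 FPKM and then 0.489 (-1.27), and the recombinase gene Rag1 at 1.62 and 0.620 (-0.69). Of 8 thymocyte genes compared, 4 were at least 1.5-fold lower and 1 higher. Dntt and Rag1 reached the mean of 1 FPKM only through their 16-day level, so they could hardly have stood otherwise than lower. Another 8 listed thymocyte genes were under that mean. In the hypomorph the T cell sum was 5.75 FPKM at 16 days and 8.58 at 30 days, so the 16-day wild-type pool held the high value of the 5 groups. Which library gave it cannot be seen in pooled values.

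Genes of antigen presentation and interferon response mostly lay within 1.5-fold. All 7 compared genes of the MHC class II and dendritic cell list were below 0, though 1, H2-DMa, passed 1.5-fold, and the median was -0.46; Cd74, the invariant chain of class II antigen presentation, was at 119.8 and 87.1 FPKM (-0.46). In the interferon list 19 of 27 were within 1.5-fold, 6 lower and 2 higher, with a median of -0.17. Among the lower were the GTPases Gbp4, Iigp1 and Igtp, which defend cells against intracellular microbes, at 10.4 and 3.39 FPKM (-1.38), 26.4 and 10.3 (-1.28) and 21.99 and 8.59 (-1.26). At 60 days they stood at 12.3, 21.9 and 26.2 FPKM. Ifi27l2a, an interferon-inducible mitochondrial protein, stood on the other side at 26.8 and 132 FPKM (2.26).

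The macrophage list had 7 of 31 at least 1.5-fold higher, 0 lower and a median of 0.34. Lyz2, lysozyme, was at 60.4 and 116 FPKM (0.93) and C1qa, a chain of the complement recognition protein made by macrophages, at 46.1 and 79.7 (0.78). The list of 10 neutrophil and mast cell genes had 4 lower and 3 higher. The neutrophil calprotectin chains S100a9 and S100a8 were at 23.6 and 3.02 FPKM (-2.61) and at 17.8 and 2.17 (-2.57), while the mast cell proteases Mcpt4 and Cpa3 were at 1.97 and 5.42 (1.11) and at 1.05 and 2.74 (0.87).

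Red cell genes were lower in 5 of 10 at 1.5-fold, with a median of -0.65 and 0 higher. A further 6 listed genes were under the mean of 1 FPKM, and with no filter on level the list median was not 1.5-fold lower. Tfrc, the transferrin receptor, was at 13.4 and 2.19 FPKM (-2.18) and Slc4a1, the band 3 anion exchanger, at 3.65 and 0.470 (-1.66). Adult globin genes lay inside 1.5-fold: Hba-a1 was at 2866 and 2480 FPKM (-0.21) and Hbb-bs at 3178 and 2350 (-0.43). Globin copies are near identical, so single values are uncertain.

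Some growth genes of the fetal programme were lower at 30 days. In the imprinted growth network, whose members are expressed from one parental copy or move with such genes, 5 of 17 compared were at least 1.5-fold lower and 2 higher, with a median of -0.35. The summed level was 1608 FPKM at 16 days and 1921 at 30 days. Dcn, its most abundant member and also on the fibroblast list, was at 690.4 and 1099.7 FPKM and differed by more than that sum did. The 2 higher were Dcn and Nnat, a brain-type imprinted gene, at 3.30 and 12.2 FPKM (1.62). Igf2, the fetal growth factor, stood at 42.0 FPKM at 16 days, 16.6 at 30 days and 21.3 at 60 days, a first difference of -1.29. H19, the noncoding RNA that shares its enhancers, was at 39.4, 11.5 and 10.7 FPKM (-1.70). Dlk1, which restrains differentiation, was at 2.93 and 0.585 FPKM (-1.31) and the zinc finger gene Peg3 at 19.2 and 11.7 (-0.67). Dlk1 reached the mean of 1 FPKM only through its 16-day level, so it could hardly have stood otherwise than lower.

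In the list of the IGF and growth hormone axis 10 of 15 were within 1.5-fold, 4 higher and 1 lower, all 5 of them IGF binding proteins. Igfbp6, which prefers IGF2, was at 43.2 and 146.6 FPKM (1.74), Igfbp5 at 76.6 and 229 (1.57), Igfbp2 at 12.6 and 31.0 (1.24) and Igfbp4 at 289.5 and 472 (0.70). Igfbp3, the main carrier in serum, was at 38.1 and 10.7 FPKM (-1.74), the lowest of the 15 compared. Igf1 itself, the growth factor of postnatal life, lay inside 1.5-fold at 56.3 and 80.5 FPKM (0.51).

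Proliferation genes stood at close levels at these ages. None of 25 mitosis and cyclin genes and none of 24 DNA replication genes passed 1.5-fold, and the medians were -0.18 and -0.05. Levels were already low: Ube2c, which helps to end mitosis, was at 6.68 and 4.70 FPKM (-0.43), and Kif11, the spindle motor, at 1.61 and 0.969 (-0.41). Between 30 and 60 days 20 of the 25 cell cycle genes were lower by 1.5-fold or more, against 3.81% of all genes compared, and their median was -0.68. The summed level at the 3 ages was 84.2, 71.3 and 29.6 FPKM.

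A noncoding transcript that hosts microRNAs was among the genes more than 2-fold lower. Dnm3os, the antisense RNA that carries miR-199a-2 and miR-214, was at 13.2 FPKM at 16 days and 2.94 at 30 days (-1.85); it was named after its values were seen. The locus listed as Mir214, whose span in the files holds 9 other genes, was at 14.8 and 2.14 FPKM (-2.33), and the authors' deposited status for it at 16 days was too few data. Polyadenylated libraries read the precursor, so no mature miRNA was measured. The mature sequences are given because they identify the products of this locus, from RefSeq (GRCm38.p6, chromosome 1, plus strand), with the seed, bases 2 to 8, in capitals.
miR-214-3p: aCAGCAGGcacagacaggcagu
miR-214-5p: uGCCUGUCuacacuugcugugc
miR-199a-3p: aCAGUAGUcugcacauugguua
miR-199a-5p: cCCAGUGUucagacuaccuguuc
No pair of these 4 shares a seed, and their target genes were not examined here.

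Most genes of elastic fibre assembly lay close to the diagonal: of 28 compared, 21 were within 1.5-fold, 4 were higher and 3 lower, with a median of -0.09. Fbn1, which encodes fibrillin-1 and is the gene altered in the hypomorph, was at 146 and 135 FPKM in wild type (-0.11). Lox, which crosslinks elastin and collagen, stood at 368 FPKM at 16 days, 214 at 30 days and 57.8 at 60 days, a first difference of -0.78. Thsd4 and Adamts10, which help fibrillin form microfibrils, were at 98.5 and 60.6 FPKM (-0.69) and at 114 and 74.7 (-0.60). Loxl1, a related crosslinking enzyme, was within 1.5-fold at 344 and 323 FPKM (-0.09).

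The 4 higher members were Efemp1 (fibulin-3) at 8.85 and 22.2 FPKM (1.24), Emilin2 at 6.58 and 14.3 (1.01), Fbln1 at 111 and 218 (0.97) and Adamtsl2, which binds microfibrils, at 30.3 and 60.2 (0.97). Other fibulins lay inside 1.5-fold: Fbln2 at 119 and 170.0 FPKM (0.51), Efemp2 (fibulin-4), which elastin crosslinking needs, at 136 and 177 (0.38), and Fbln5 at 213 and 205 (-0.05). Elastin itself (Eln) and the major fibrillar collagens Col1a1, Col1a2 and Col3a1 are listed at 0 at both ages. Since every aorta makes them, that listing can be a failed estimate, and they were not compared.

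Other collagen chains past 1.5-fold were few. Of 7 fibrillar collagens compared, 3 were at least 1.5-fold lower and 0 higher: Col27a1 at 21.9 and 6.35 FPKM (-1.64), Col11a2 at 14.1 and 5.64 (-1.18) and Col11a1 at 2.27 and 1.16 (-0.60). Of 13 in the list of other collagens 3 were lower and 0 higher: Col9a1 and Col9a3, chains of type IX collagen of cartilage, at 7.17 and 1.79 FPKM (-1.55) and at 3.31 and 1.08 (-1.05), and Col6a6, a type VI chain, at 19.0 and 10.2 (-0.83). In the collagen processing list 2 of 29 were higher and 0 lower, a share near that of all genes: Pcolce, which speeds removal of the procollagen end, was at 149.7 and 443 FPKM (1.56), and Ctsk, which degrades collagen, at 40.3 and 82.3 (1.01).

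Basement membrane genes gave 3 of 19 higher and 1 lower at 1.5-fold. The chains that pair in one trimer, Col4a3 and Col4a4, were at 10.6 and 22.5 FPKM (1.02) and at 12.4 and 19.4 (0.61), while Col4a5, their partner, was at 309.6 and 209 (-0.57). Nid2, which links laminin to collagen IV, was at 15.4 and 6.06 FPKM (-1.21). Among 31 proteoglycans and matricellular proteins 7 were higher and 3 lower: Ccn5, which restrains smooth muscle growth, was at 54.9 and 214 FPKM (1.94), Smoc2 at 52.5 and 169 (1.67), and Thbs1, which activates latent TGF-beta, at 96.1 and 56.5 (-0.76). Among 28 proteases and inhibitors 6 were higher and 0 lower, among them Timp1, an inhibitor of metalloproteinases, at 25.0 and 45.9 FPKM (0.85).

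Contractile genes of smooth muscle stood on both sides. Of 37 compared, 3 were at least 1.5-fold higher and 8 lower, with a median of -0.28, yet their summed level was 15782 FPKM at 16 days and 20345 at 30 days because the most abundant stood higher. Myl6, the essential light chain, was at 2302 and 3488 FPKM (0.60) and Myh11, the smooth muscle myosin heavy chain, at 643 and 863 (0.42). Ppp1r14a, the inhibitor of myosin phosphatase, was at 204 and 325.5 FPKM (0.67). Acta2, smooth muscle actin, was at 4812 FPKM at 16 days and is listed at 0 at 30 days, so it was not compared.

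The 8 lower members included 3 ion channel genes. Kcnma1, the large-conductance potassium channel, was at 13.8 and 6.57 FPKM (-0.96) and Cacna1c, the L-type calcium channel, at 18.2 and 9.54 (-0.86). Vcl (vinculin), which ties actin to adhesions, was at 78.6 and 49.1 FPKM (-0.67). Myocd, the SRF partner that drives the contractile programme, was at 52.2 and 36.0 FPKM (-0.53), inside 1.5-fold. Pln and Casq2, the lowest pair of this list, are heart genes as well.

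Difference and transcript length went together in these genes. Over the 37, Spearman's rho between the difference and the longest annotated transcript was -0.36, and over 13356 genes with a length it was -0.31; genes share the same 2 pools, so these are descriptions. Median differences were 0.08, -0.01 and -0.13 in the shortest, middle and longest of 3 equal sets of 4452 genes. In the hypomorph over the same ages rho was -0.10. Other wild-type lists with at least 10 genes ran from -0.72 (erythroid) to 0.72 (mesothelial). For adipocyte genes rho was -0.60, and for cardiomyocyte genes 0.22. The part of length in these differences was not tested further than by subtracting the median of genes of like length, which left Myl6 at 0.60 and Kcnma1 at -0.75.

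**Figure D3:**
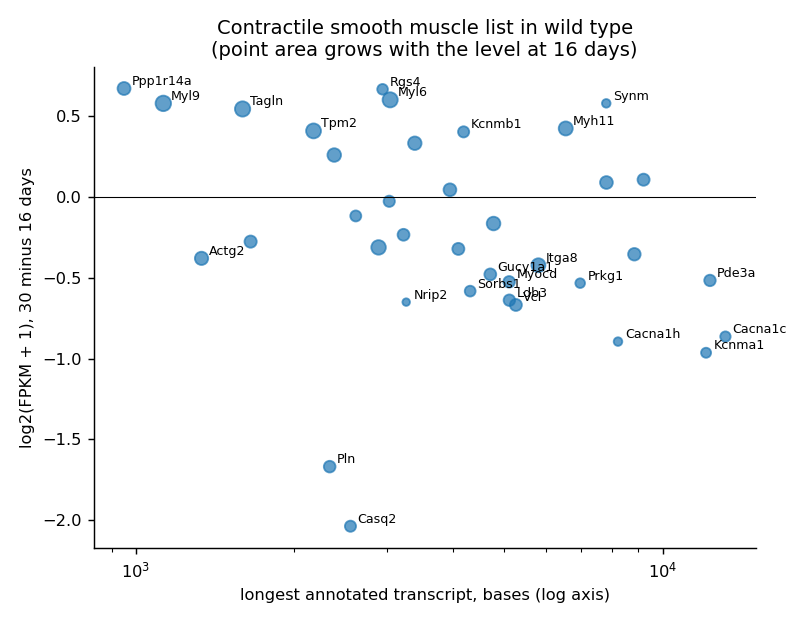
Difference of log2(FPKM + 1), 30 minus 16 days, against the longest annotated transcript (log axis) for contractile smooth muscle genes; point area grows with the 16-day level. Ppp1r14a, Myl9, Tagln and Tpm2 sit above 0 among short transcripts, Cacna1c and Kcnma1 below 0 among long ones, and Casq2 and Pln lowest.

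Receptors and signals of vascular tone held 5 of 27 higher and 2 lower at 1.5-fold, with a median of 0.07. The vasopressin receptor Avpr1a was at 0.722 and 3.75 FPKM (1.46), the ATP-gated channel P2rx1 at 4.05 and 10.8 (1.23), the VIP receptor Vipr2 at 4.39 and 11.4 (1.20) and renin (Ren1) at 2.24 and 5.74 (1.06). Agtr2, the angiotensin receptor most active before birth, was at 1.84 and 0.435 FPKM (-0.98) and 0.207 at 60 days. Ace, which makes angiotensin II, was at 166.5 and 217 FPKM (0.38).

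In the TGF-beta and BMP list 6 of 37 were higher and 1 lower, with a median of 0.01. The ligands Gdf10 and Bmp4 were at 51.9 and 133 FPKM (1.34) and at 29.1 and 50.9 (0.79), and the BMP antagonist Chrdl1 at 3.08 and 7.26 (1.02). Fstl3, which binds activin, was at 87.0 and 57.6 FPKM (-0.59). In the Notch, Wnt and hedgehog list 7 of 36 were higher and 4 lower, with a median of -0.18. Higher were the Wnt antagonist Sfrp4 at 27.8 and 93.3 FPKM (1.71), the Wnt enhancer Rspo1 at 1.58 and 5.21 (1.26) and the ligand Wnt2 at 1.37 and 3.95 (1.06). The antagonists Dkk3 and Wif1 lay inside 1.5-fold at 255.0 and 180.5 FPKM (-0.50) and at 54.2 and 44.0 (-0.29).

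Most clock genes lay within 1.5-fold, 14 of 20 compared. Of the others 4 were at least 1.5-fold lower, namely the repressors Per2, Cry1, Per3 and Per1, and 2 higher, namely Nr1d1 and Dbp. Per2 was at 18.8 and 7.19 FPKM (-1.27) and Cry1 at 4.59 and 1.43 (-1.20). Nr1d1, which encodes the repressor REV-ERB-alpha, was at 72.0 and 142.5 FPKM (0.98), and Dbp, a clock output factor, at 57.2 and 98.5 (0.77), while its relative Tef was at 92.1 and 67.0 (-0.45). In the hypomorph Per2 was at 22.5 and 10.8 FPKM, and the hour of tissue collection is not given in the sources used here.

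Stress and hormone targets were mixed. Immediate early genes gave 3 of 22 higher and 6 lower: Nr4a1, an orphan receptor induced within minutes of a stimulus, was at 60.3 and 26.0 FPKM (-1.18), and Atf3, a stress factor, at 12.3 and 35.0 (1.44). Glucocorticoid targets gave 3 of 23 higher and 4 lower, with Hsd11b1, which regenerates active glucocorticoid, at 3.63 and 16.1 FPKM (1.88) and Ddit4 at 36.2 and 16.2 (-1.11). Detoxifying enzymes leaned higher, 6 of 35 with 0 lower: the cytochrome P450 Cyp2e1 was at 24.6 and 67.6 FPKM (1.42).

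Vessel lining, nerve and outer covering each had a few genes higher. Endothelial genes gave 3 of 27 at least 1.5-fold higher and 0 lower, with a median of 0.22. The 3 were Bmx (0.64), Fabp4 (0.64), which is also on the adipocyte list, and Plvap (0.59), barely past the cut. Pecam1, the adhesion molecule CD31, was at 153 and 218 FPKM (0.51). Of 16 Schwann and neuronal genes 3 were higher and 0 lower. Mbp, a myelin protein, was at 3.36 FPKM at 16 days, 9.92 at 30 days and 8.40 at 60 days. Of 10 mesothelial genes 5 were higher, led by Upk3b at 9.06 and 23.1 FPKM (1.26), and 0 lower.

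Housekeeping lists stayed close to the diagonal. None of 47 ribosomal protein genes and none of 32 genes of oxidative phosphorylation passed 1.5-fold, with medians of 0.05 and -0.03. Their differences ran from -0.08 to 0.41 and from -0.21 to 0.33. Glycolysis gave 1 of 23 higher and 1 lower, the latter the muscle enolase Eno3 at 48.9 and 18.9 FPKM (-1.32).

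**Figure D4:**
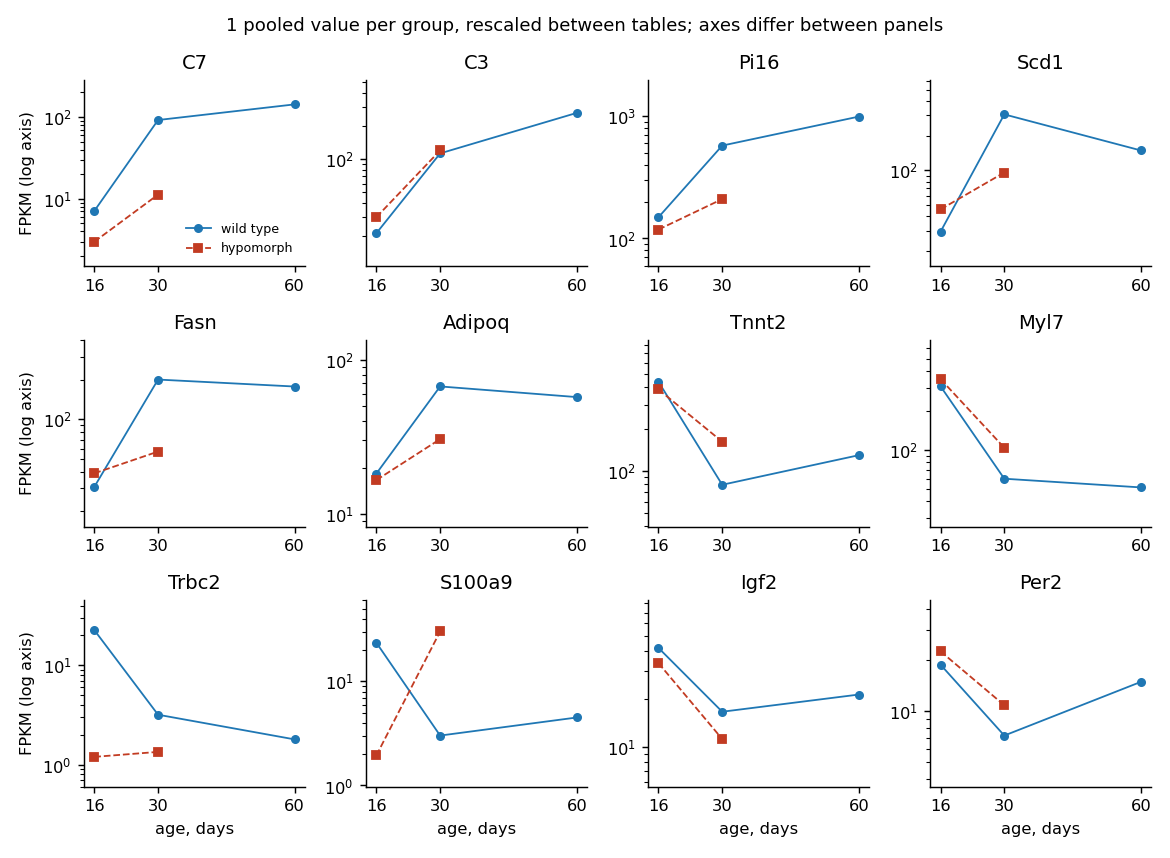
FPKM (log axis, a scale for each panel) against age in days for 12 genes, in wild type at 16, 30 and 60 days (blue) and in the hypomorph at 16 and 30 days (red); each point is 1 pooled value. S100a9 runs in opposite directions in the 2 genotypes, and Tnnt2 and Myl7 are lower at 30 days in both.

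The hypomorph shares no library with wild type, and its aortas of the same ages give a second look at these genes in diseased tissue. At each age both genotypes share 1 normalisation, so a shared sign cannot tell age from processing. Of the 163 genes at least 2-fold higher in wild type, 144 were also higher in the hypomorph (88.3%, against 48.5% of all compared) and 39 were at least 2-fold higher there, against 1.78% of all compared, with a median of 0.64 beside 1.298. Of the 192 lower, 191 could be compared and 150 were also lower (78.5%, against 51.5% of all), 35 of them at least 2-fold against 0.511% of all, with medians of -0.58 and -1.36. The wild-type values chose these genes, so the sizes in the 2 genotypes are given side by side and not compared.

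Over all genes compared in the hypomorph, 5.34% stood higher at 30 days by 1.5-fold or more and 2.8% stood lower. Cardiomyocyte genes were lower in both genotypes, with 17 of 21 at least 1.5-fold lower in the hypomorph and a median of -0.86; Myl7 was at 349 and 104 FPKM there. Complement genes had a hypomorph median of 0.62, and C3 stood at 29.8 and 120 FPKM. Adventitial fibroblast genes had a hypomorph median of 0.30 against 0.75 in wild type, with 8 of 25 at least 1.5-fold higher there and 0 lower. Adipocyte genes had a hypomorph median of -0.10 against 0.91 in wild type, with Fasn at 39.0 and 57.0 FPKM and Adipoq at 16.6 and 30.6. Cell cycle genes had a median of 0.94 against -0.18, with 24 of 25 at least 1.5-fold higher. These contrasts between genotypes were not tested.

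**Figure D5:**
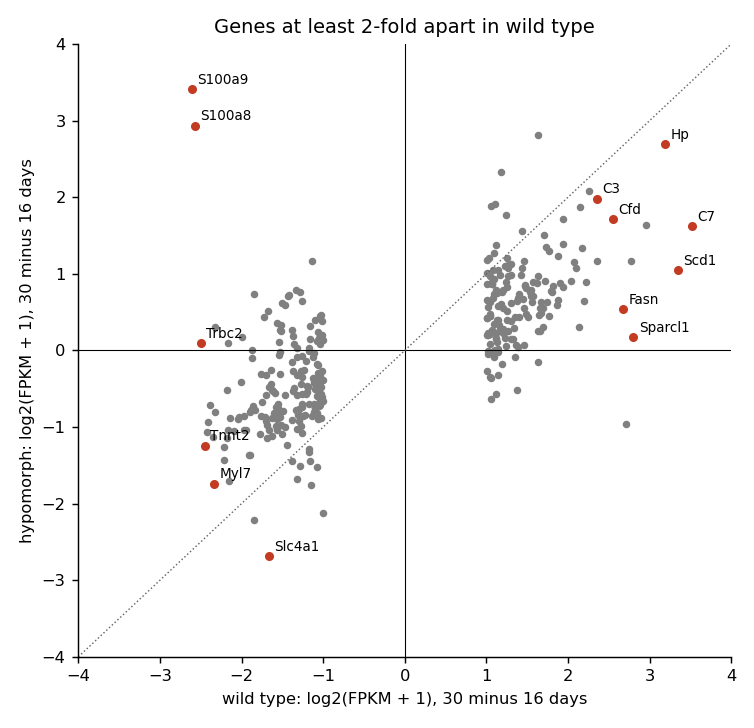
Difference of log2(FPKM + 1), 30 minus 16 days, in wild type (x) and hypomorph (y) for genes at least 2-fold apart in wild type; the dotted line marks equal differences. Most points share the sign in both genotypes, while S100a8 and S100a9 lie on opposite sides.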

How the data were processed

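RNA of whole aorta was measured in 19 libraries; the 7 of wild type at 16 and 30 days are the subject. The submitters' processing notes name Cufflinks 1.3.0, SAMtools 0.1.7, Bowtie2 2.1.0 and TopHat2 2.0.8 with the build mm9, without their settings. Per the labels' protocols, libraries were stranded, from polyadenylated RNA, and read in pairs. The authors deposited FPKM values, 1 for each gene and group, pooled over libraries, so the sums of FPKM give no depth. The 16-day table also holds the authors' deposited p-value and q-value, log2 ratio and score for genotype, used here only for test status and the implied standard error. Where wild-type values were listed 3 times at 30 days, the larger was kept; 17 genes differed, each with a listing of 0. Rows of 2 further groups fit no label and were left out.

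Values of 30 days were divided by the median ratio of 0.990 (hypomorph 0.999); 60-day values also by 0.948. Genes at 0 at either age (2475 at 1 age, 13144 at both) or with a mean under 1 FPKM (8136) were not compared. Genes under 1 FPKM at 1 age could reach this mean only through the other age. Differences use a pseudocount of 1. Without replicates no p-value was computed, and the tests planned for values per library were not run. The rescaling was tested on simulated data. Members and the 53 lists were chosen with earlier results of these data known. Named genes were the 20 highest and 20 lowest differences among genes with a symbol, leaving out predicted models, pseudogenes and receptor segments, and in each list up to 6 members furthest from 0 plus those at 50 FPKM or more. Motifs were searched on both strands in 250 bases before RefSeq starts. Alternatives were other rescalings, a pseudocount of 0.1, other level filters, the mean of repeated listings, and genes tested by the authors. Leaving out lists of heart, skeletal muscle, fat and blood cells, and subtracting the median of genes of like transcript length in 20 bins, were chosen after seeing the data. Python 3.11.15, pandas 2.3.3, numpy 2.4.6 and matplotlib 3.10.9 were used. Some genes the naming rule picks are not reported here.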

Additional observations from a re-analysis of the deposited data

Results flagged for a closer look

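In 3 genes the 2 genotypes stood at least 2-fold apart in opposite directions between 16 and 30 days. S100a9, a chain of neutrophil calprotectin, differed by -2.61 in wild type (23.6 to 3.02 FPKM) and by 3.41 in the hypomorph (1.94 to 30.2). Its partner S100a8 differed by -2.57 and 2.93, and Mir142hg, the host of a blood-cell miRNA, by -1.14 and 1.17. Mir142hg was low throughout, at 2.68 and 0.669 FPKM in wild type and 0.181 and 1.66 in the hypomorph. It reached the mean of 1 FPKM only through its 16-day wild-type level, and the hypomorph values were not filtered on level. Each value is 1 pool, so the difference between genotypes was not tested.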

How the results depend on the processing

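No paired analysis was possible because the files hold no values of single libraries, so no replicate could be left out either. A pseudocount of 0.1 gave 262 genes higher and 352 lower by 2-fold or more, of which 223 and 270 lay on the same side in the hypomorph, and 8 lists had a median at least 1.5-fold lower. With a mean of at least 5 FPKM, 103 genes were at least 2-fold lower (86 also lower in the hypomorph) and 323 at least 1.5-fold lower. Lists with a median at least 1.5-fold lower numbered 1 with no filter on level and 0 without the lists of other tissues and blood cells, which by construction removes all 5. The other 70 counts lay within 1.5 times the reported ones. Of values recomputed for single genes, 18 moved by over 1.5-fold and 5625 did not, and of list medians 5 moved and 515 did not; no direction called was reversed. Without depth, counting error is unknown, and genes near 1 FPKM are the least certain.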

Other observations

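Several of the highest single differences in wild type belong to genes on no list above. Hp (haptoglobin, which binds free haemoglobin) was at 8.48 FPKM at 16 days and 85.3 at 30 days, a difference of 3.19, and at 13.2 and 90.5 FPKM in the hypomorph. Orm1, an acute-phase protein, was at 0.724 and 6.10 FPKM (2.04) and entered the comparison only through its 30-day level. The major urinary protein genes Mup10, Mup11, Mup9 and Mup18 were each at or below 0.123 FPKM at 16 days and at 7.73, 4.60, 3.92 and 3.60 FPKM at 30 days, so they entered the comparison only through their 30-day level; copies of this family are near identical, so single values are uncertain. Sparcl1, a matricellular protein of vessels, was at 70.5 FPKM at 16 days, 497 at 30 days and 176 at 60 days, against 192.5 and 217 in the hypomorph at 16 and 30 days. Tnmd, a membrane protein of tendon and fat, was at 1.87, 11.6 and 4.21 FPKM at the 3 ages, and Acp5, an acid phosphatase of osteoclasts and macrophages, at 3.56, 19.5 and 17.8.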
